A study of Mus musculus with 8 samples.

Results

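Tmem92, a gene for a transmembrane protein, was measured by 1 probe, Z00009978-1, out of 42006 different probes on each array. It was chosen by its RA difference: among the 121 probes that had a gene name here and could be read on both arrays of the RA pair, it had the largest log2 ratio difference between RA-Zscan4+ and RA-Zscan4- cells. With the Cy3 signal alone, not divided by the reference, it held rank 6 among the named probes. That difference is therefore given below as a description without a test. Only the comparison in regular medium, measured on other arrays, was tested.

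The cells were mouse embryonic stem cells (ESCs) of the line 129.3:zscan4cEmgfp, of 129/Sv background, in which the promoter of Zscan4c drives the green fluorescent protein Emerald. All groups carried this reporter and differed by sort and by medium. RM-Zscan4+ and RM-Zscan4- cells came from regular medium (RM, without added retinoic acid), were Emerald positive or negative at culturing day 5, and were measured on 3 arrays each. RA-Zscan4+ and RA-Zscan4- cells were sorted in the same way from medium with 1.5 μM retinoic acid (RA) and were measured on 1 array each. The labels call the arrays of a group biological replicates, without saying which cultures they came from. Sorting by a reporter separates cells by promoter activity, so the level of Zscan4 itself is a check of the sort rather than an independent result.

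Zscan4 encodes a SCAN domain and zinc finger protein of the mouse 2-cell embryo, and in ESC cultures it is active in a small, changing fraction of cells. Genes that come on with it include Tcstv1 and Tcstv3, of the 2-cell-stage variable group, and PRAME-like genes. Retinoic acid is the ligand of nuclear receptors that bind DNA and drive differentiation of ESCs. Tmem92 is named for a predicted membrane-spanning segment, and less is known of it than of these genes. In the mouse annotation GRCm38.p6 it is a protein-coding gene of chromosome 11, listed between Gm11545 and Gm11546. None of the 10 genes nearest to it in that annotation, 5 on each side, has a named probe here.

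What was read as Tmem92 was hybridization to an oligonucleotide of 60 bases. The sequence of this probe is shown as the scanner file lists it, beside those of Gm12794, the probe whose profile over the 8 arrays was most like it, and Arg2, the next named probe in the order of RA change. Capitals mark the stretches of 13 bases that the Tmem92 probe shares with any other probe, the longest shared with any of the other 42005.
Tmem92 probe: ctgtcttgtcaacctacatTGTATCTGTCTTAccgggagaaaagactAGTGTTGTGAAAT
Gm12794 probe: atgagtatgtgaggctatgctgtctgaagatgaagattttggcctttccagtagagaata
Arg2 probe: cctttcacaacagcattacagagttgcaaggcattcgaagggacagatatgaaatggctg
The Tmem92 probe had a GC content of 40%, against a median of 43.3% over all probes. On the same strand it shared at most 6 bases in a row with each of the Gm12794 and Arg2 probes, and with the opposite strand at most 4 and 10. The first stretch, bases 20 to 32 from the start as listed, occurs in 1 other probe (Z00010367-1), and the second, bases 48 to 60, in 2 others. Of these 3 probes, Z00010367-1 and Z00026485-1 differed between RM-Zscan4+ and RM-Zscan4- by -0.35 and 0.05 on the log2 scale and did not pass the test. The third, LOC432590, singled out here for this stretch after its values were seen, rose by 3.20 (limma, adjusted p = 0.0526). Whether RNA of another gene binds to the Tmem92 probe was not tested.

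RNA of the sorted cells was labeled with Cy3 and hybridized together with the same mouse reference RNA, in Cy5, on all arrays, and the value of a probe is the log2 ratio of Cy3 over Cy5. The median probe had a Cy3 intensity above local background of 114 to 241, and the 95th percentile of the 314 negative control spots lay between 31.4 and 49.5. Zscan4 separated the groups as the sort labels say, with log2 ratios of 5.08, 5.59 and 5.03 in RM-Zscan4+ against 0.10, 0.21 and 0.98 in RM-Zscan4-, and of 6.13 against 1.88 in the RA pair. The arrays were extracted from the scans in 3 batches by day: RM replicates 1 and 3, RM replicate 2, and both RA arrays. Gene names were at hand for 128 probes, all from the study's list of genes that rose in RA-Zscan4+. None of the 13 pluripotency genes and 13 RA targets listed for this comparison, nor of the listed endoderm, mesoderm and fibroblast markers, is among them. The 6 listed markers of 2-cell-like cells all passed the test as higher in RM-Zscan4+, against 0.193% of all probes tested. Their names come from the list of genes that rose in RA-Zscan4+, and 1 of them is Zscan4. The count is therefore no independent check of the cell type. Of 7 neuroectoderm markers 3 had a named probe, and 1 of them passed the test in RM: the RM difference was 3.22-fold for Lmx1a, which rose, 1.75-fold for Bdnf and 1.04-fold for Cdh20. Their part in the Tmem92 values was not tested. RNA was taken from sorted pools, in which a change in the share of expressing cells and a change in RNA per cell cannot be told apart.

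Tmem92 was high in every Zscan4+ sample and low in every Zscan4- sample. In RM-Zscan4+ its log2 ratio was 5.11, 5.32 and 3.48 for replicates 1, 2 and 3. In RM-Zscan4- it was 0.00, -0.27 and 0.50. The lowest RM-Zscan4+ array, replicate 3, was still 2.98 above the highest RM-Zscan4- array, also replicate 3, so the groups did not overlap. A gap of this direction, with all RM-Zscan4+ arrays above all RM-Zscan4- arrays, was found for 4.97% of the 41161 probes with a value on all 6 RM arrays. The RA-Zscan4+ array had the highest value of all, 5.96, and the RA-Zscan4- array stood at 0.77, above the RM-Zscan4- arrays.

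**Figure D1:**
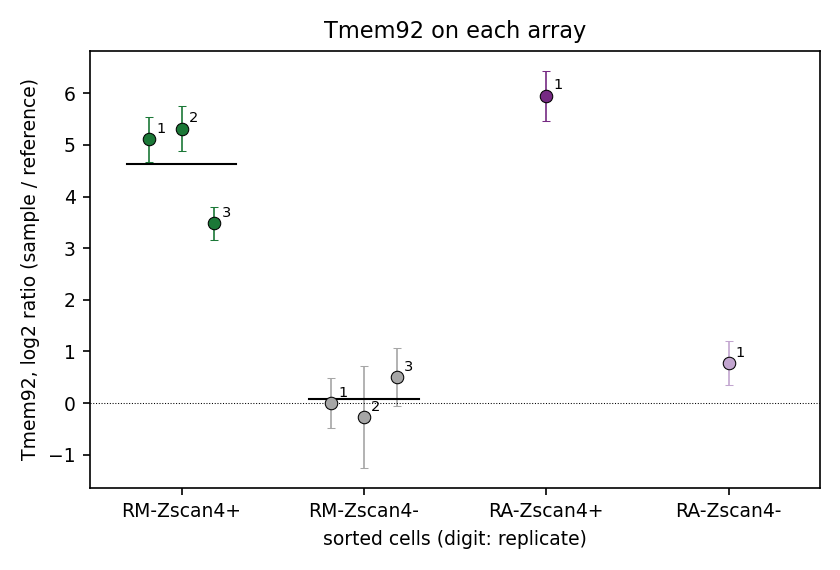
Log2 ratio of Tmem92 over the common reference on each of the 8 arrays, by group; bars through the points are the technical error of the scanner software (1 spot) and black lines are group means. The 3 RM-Zscan4+ arrays lie between 3.48 and 5.32 and the RA-Zscan4+ array at 5.96, and all 4 Zscan4- arrays lie at 0.77 or below.

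The mean log2 ratio was 4.64 ± 1.01 (SD, n = 3) in RM-Zscan4+ and 0.08 ± 0.39 (SD, n = 3) in RM-Zscan4-. The fitted difference of 4.56 with a standard error of 0.50 was a 23.6-fold rise, with a 95% interval from 10.1- to 55.1-fold, and passed the test at an adjusted p of 0.0477 in limma with Benjamini-Hochberg adjustment over all 42006 probes. The call, defined as at least 3-fold with an adjusted p under 0.15, was made for 81 probes, or 0.193% of those tested, and Tmem92 held rank 9 by size of change. An exact two-sided permutation test on Tmem92 alone, which ignored the replicate numbers, gave p = 0.1, the smallest that 3 arrays against 3 allow. The call did not hold when RM-Zscan4+ replicate 1 (4.32, adjusted p = 0.247), RM-Zscan4- replicate 1 (4.52, adjusted p = 0.273) or RM-Zscan4- replicate 2 (4.38, adjusted p = 0.249) was left out. It did not hold either with t-statistics built here after the description in the methods, without the software of the study. By these t-statistics 0 probes passed and 101 were at least 3-fold higher at an unadjusted p under 0.05, against 113 in limma.

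The 3 RM pairs of arrays differed in how far Tmem92 rose. The change from RM-Zscan4- to RM-Zscan4+ of the same replicate number was 34.5-fold in replicate 1, 48.1-fold in replicate 2 and 7.89-fold in replicate 3, a standard deviation of 1.39 between the log2 changes. None of the other 79 enriched probes with a value on all 6 RM arrays had a larger standard deviation over the pairs, and their median with Tmem92 included was 0.59. Among the probes of all genes, Tmem92 ranked 3 and 6 by change in replicates 1 and 2 and 29 in replicate 3. Without both arrays of replicate 3, a choice made after seeing these values, the difference was 5.35 (limma, adjusted p = 0.00568). By extraction batch, the change was 4.04 on the log2 scale in the batch of replicates 1 and 3 and 5.59 in that of replicate 2. With the batch as a block the adjusted p was 0.111.

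The smaller change in replicate 3 was shared in direction by 8 genes taken here as the signature of Zscan4+ cells. These were Zscan4, Tcstv1, Eif1a, Gm4340, AF067063, BC061212 and Gm12794, as in the study, and Tcstv3, which was added here. The median log2 change of these genes was 4.37 in replicate 1, 4.87 in replicate 2 and 3.33 in replicate 3. For all 8 of them, replicate 3 had the lowest value of the RM-Zscan4+ arrays and the highest of the RM-Zscan4- arrays, as it had for Tmem92. Over the 41113 probes with a value on all 8 arrays, this was so for 33.4% and 35.3%. The change of Tmem92 lay above the signature median in replicates 1 and 2 and below it in replicate 3. Of these genes Gm12794, a member of the PRAME-like family, went most alike, with 4.02, 4.52 and 2.91 in RM-Zscan4+ and -0.46, -0.57 and 0.13 in RM-Zscan4-.

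**Figure D2:**
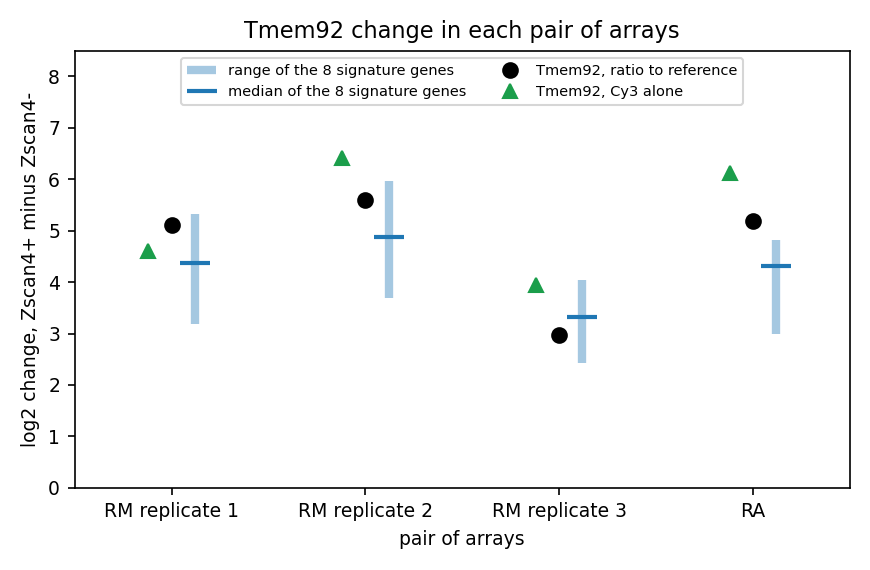
Log2 change from Zscan4- to Zscan4+ in each pair of arrays; black points are Tmem92 by the ratio to the reference, green triangles Tmem92 by Cy3 alone, and blue bars the range and median of the 8 signature genes. Tmem92 by ratio stands above the signature median in RM replicates 1 and 2 and in RA (5.11, 5.59 and 5.18) and below it in RM replicate 3 (2.98 against 3.33).

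The sample dye carried the difference. The Cy3 intensity of the Tmem92 spot above local background was 2090, 2270 and 1230 in RM-Zscan4+ and 86.0, 45.0 and 106 in RM-Zscan4-. It was 4260 in the positive sort from RA and 81.6 in the negative sort. In the Zscan4+ samples these values were 24.8 to 126 times the 95th percentile of the negative controls, and no negative control reached them. In the Zscan4- samples they were only 1.15 to 2.37 times that level, and between 2 and 6 of the 314 negative controls were as bright or brighter. In RM-Zscan4- replicate 2 the spot was the dimmest, and its technical error in log2 ratio was the largest, 0.987 against 0.315 to 0.560 on the other arrays. On the other Zscan4- arrays this error was 0.431 to 0.560, against 0.315 to 0.485 on the Zscan4+ arrays, so these ranges overlapped. Between the RM arrays the log2 ratio varied less in the low group (SD 0.39 against 1.01). Nearness to the negative controls still limits how well the low levels are known. No Tmem92 spot was saturated or marked as an outlier.

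The reference dye at this spot was not constant. Its Cy5 intensity above local background was 139, 144 and 322 in RM-Zscan4+, 160, 56.4 and 138 in RM-Zscan4-, 296 in RA-Zscan4+ and 113 in RA-Zscan4-. From Zscan4- to Zscan4+ it was 0.87 times as high in RM replicate 1 and 2.55, 2.33 and 2.62 times as high in RM replicate 2, RM replicate 3 and RA, while the median Cy5 intensity of all probes was 0.949 to 1.08 times as high in the 4 pairs. The median of the other 80 enriched probes was 1.44, 1.56, 1.51 and 2.10 times as high. A higher reference signal lowers the ratio, and the array with the lowest ratio of the RM-Zscan4+ group, replicate 3, had the highest Cy5 intensity. With Cy3 alone, scaled to the 75th percentile of the array, Tmem92 rose by 4.60, 6.41 and 3.94 on the log2 scale in the 3 RM pairs and differed by 6.12 in the RA pair. In RM the fitted Cy3 difference was 4.98, or 31.7-fold (limma, adjusted p = 0.000401). The part of the reference signal in the ratio changes was not tested.

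**Figure D3:**
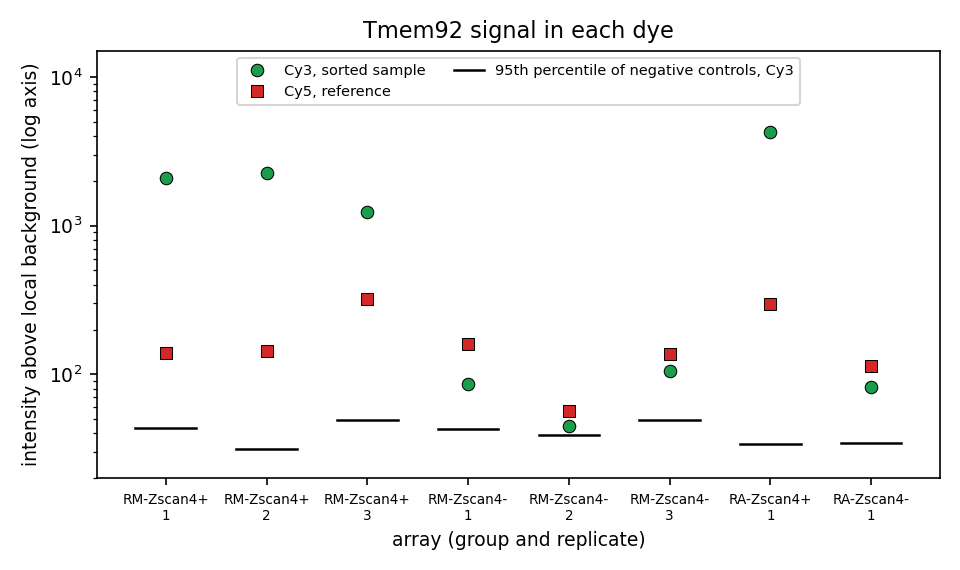
Intensity of the Tmem92 spot above local background on each array, on a log axis; green circles are Cy3 (sorted sample), red squares Cy5 (reference), and black lines the 95th percentile of the negative controls in Cy3. Cy3 lies at 1230 to 4260 in Zscan4+ samples and at 45.0 to 106 in Zscan4- samples, close to the negative controls.

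In RA, where the difference selected the gene, Tmem92 in RA-Zscan4+ stood at 36.3-fold its level in the negative cells, a difference of 5.18 on the log2 scale with a technical error of 0.65. A difference of at least 3-fold upward was found for 204 of 41958 probes, or 0.486%. By size of this ratio difference Tmem92 held rank 2 among all probes. Above it stood only the unnamed probe Z00046703-1 at 586-fold, whose Cy3 intensities of 45.1 and 25.7 lay near the negative controls. Next below it came Arg2, which encodes the mitochondrial arginase, at 34.7-fold, or 5.12 against 5.18 on the log2 scale. This gap is far within the technical error, so the order of Tmem92 and Arg2 is not settled by these arrays. Among the named probes Tmem92 came first with each set of ratios tried, but not with Cy3 alone. By that measure, ranked after the ratios had been seen, it was 69.4-fold higher and 5 named probes stood above it, Drr2 (139-fold), EG226955, LOC665446, Tcstv3 and Zscan4 (121-fold).

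Across the media, the RA difference of Tmem92 lay within the range of the RM pairs. Its 36.3-fold stood between the 34.5-fold of replicate 1 and the 48.1-fold of replicate 2. The RA difference exceeded the fitted RM change by 0.62 on the log2 scale, less than the standard deviation of 1.39 between RM pairs. Without RM-Zscan4+ replicate 3 the excess was 0.05. For 4 of the 8 signature genes the RA difference was instead smaller than the RM change, among them Zscan4 with 4.26 against 4.80. Over all probes with 8 values, 47.5% had a larger RA difference than RM change, so the even split of the signature genes is near the background. With 1 array for each RA group, and a gene selected on them, none of these differences was tested.

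**Figure D4:**
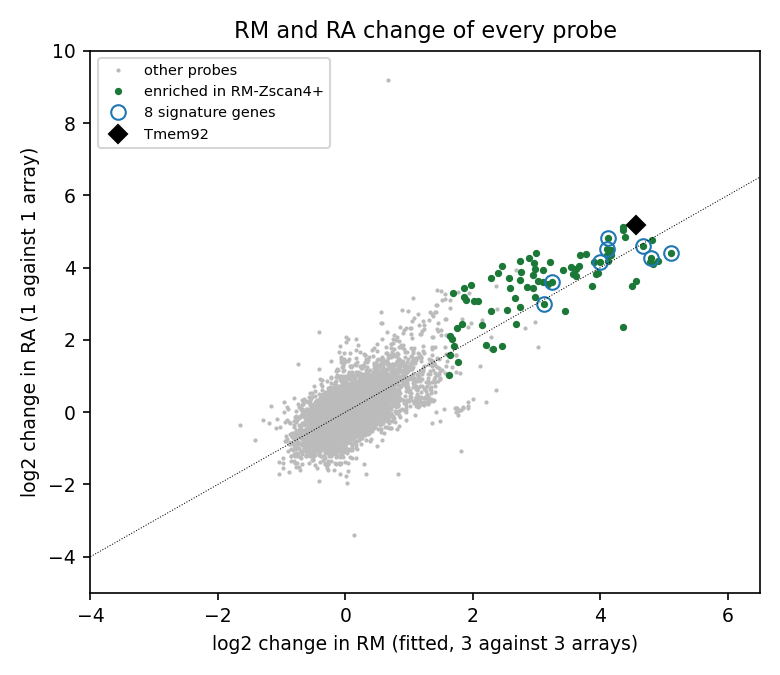
Log2 change of every probe with both values, in RM (fitted, x axis) and in RA (1 array against 1, y axis); green points are the enriched probes, blue rings the 8 signature genes, the black diamond Tmem92, and the dotted line equal change. Tmem92 lies at 4.56 in RM and 5.18 in RA; the point far above it at 9.19 is the dim unnamed probe.

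Comparing RA with RM within a sort, Tmem92 stood 0.69 higher on the log2 scale in RA-Zscan4- than in the mean of RM-Zscan4-, or 1.62-fold, where the RM-Zscan4- arrays had a standard deviation of 0.39. Among the Zscan4+ cells it was 1.32 higher in RA, or 2.50-fold, where the RM-Zscan4+ arrays had a standard deviation of 1.01. Both RA arrays took part in choosing Tmem92, so neither value is an independent measure of a change with RA. RA-Zscan4- lay above the highest RM-Zscan4- array (0.77 against 0.50) by less than its own technical error of 0.431. Signature genes stood likewise: 6 of 8 were higher in RA-Zscan4- than on every RM-Zscan4- array, and 7 of 8 were higher in RA-Zscan4+ than on every RM-Zscan4+ array, against 27.4% and 27.1% of all probes with 8 values. The margins were unequal. In RA-Zscan4+ they ran from slight, as for Tcstv3 (5.56 against 5.55), to larger, as for BC061212 (5.15 against 4.33). The signature genes were named from the study's list of genes that rose in RA-Zscan4+. The counts of 6 and 7 are therefore not independent of the RA arrays. Both RA arrays formed an extraction batch of their own, so in these values the medium cannot be told apart from the batch.

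The probes whose profile over the 8 arrays was most like that of Tmem92 were found by the root mean square difference of log2 ratios after centring each probe on its mean. They are described only, since 4 of the 8 arrays are Zscan4+ and any probe that separates the sorts by a similar amount comes near. The closest of 41112 probes was Gm12794, at a root mean square difference of 0.35, and the tenth was at 0.50, against a median of 2.47 over all probes. In order they were Gm12794, Z00060619-1, A530040E14Rik, Z00060294-1, LOC432715, BC061212, Arg2, Tcstv1, Z00061010-1 and 1700001F09Rik. Of these 10 probes, 7 had a gene name, and the named genes include 3 of the Zscan4 signature. Their fitted RM changes ran from 4.10 for BC061212 to 4.80 for Z00060619-1, and all 10 passed the test. The RM arrays of that test took part in choosing these probes, so neither their changes nor their passing is a separate result. With Cy3 alone, 5 of the 10 stayed among the 10 most alike, and over the 6 RM arrays alone, 7 of the 10, where A530040E14Rik, a long noncoding RNA, came first.

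**Figure D5:**
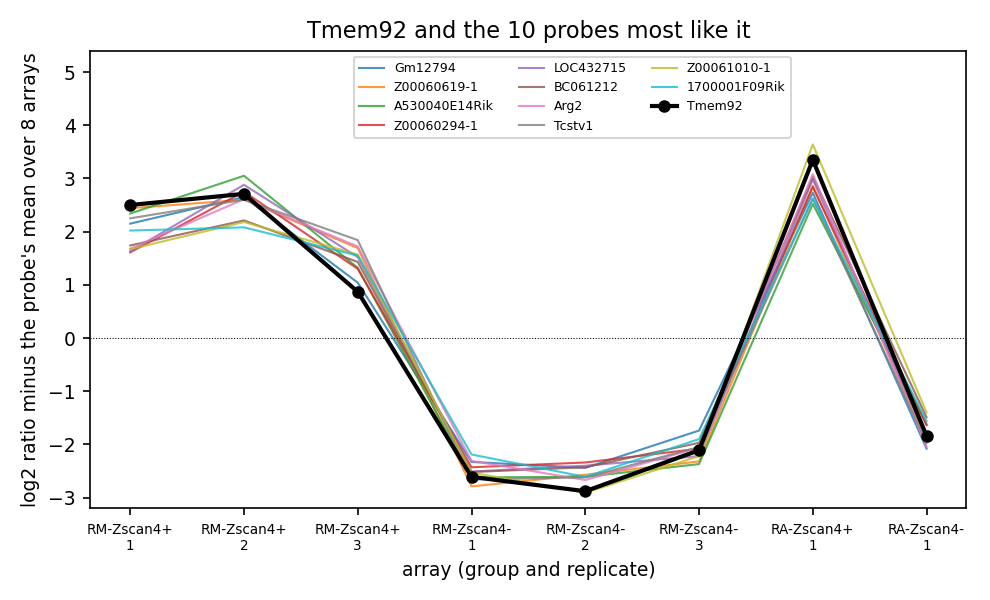
Log2 ratio minus the mean of the probe over the 8 arrays, for Tmem92 (black) and the 10 probes most like it (colors), by array; lines only join the values of 1 probe. The profiles run close together, and Tmem92 is the lowest of them on RM-Zscan4+ replicate 3.

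Tmem92 is not on the list of 2-cell genes used here, and set beside the genes on it, its change was among the larger ones. Of 26 listed 2-cell genes, 7 had a named probe. Of these 7, 5 passed the test in RM, 0 in the lower direction, against 0.193% of all probes called higher. Their median change was 4.12 on the log2 scale against -0.01 over all probes. These names come from genes the study chose on the RA arrays, so the count is not independent evidence of their direction. The rises were 34.4-fold for Tcstv3, 25.5-fold for Tcstv1, 20.4-fold for Arg2, 17.4-fold for Gm12794 and 3.38-fold for Zfp352, a zinc finger gene of the 2-cell embryo. The call of Zfp352 held under only 9 of 18 alternative settings. Tdpoz5 and Dub2, the latter a deubiquitinase gene, differed by 1.80- and 1.78-fold, under the 3-fold of the call. All 8 signature genes, named from the same list of the study, passed the test, with RM changes between 3.11 for Gm4340 and 5.10 for Tcstv3. The 4.56 of Tmem92 lay below Tcstv3 (5.10), Zscan4 (4.80) and Tcstv1 (4.67) and above the other 5. The standard error of Tmem92, 0.50, was larger than that of each signature gene (0.20 to 0.42), so its place between Tcstv1 and Gm12794 (4.12) lies within its error. With Cy3 alone the order changed: Tmem92, at 4.98, lay below Tcstv3 (7.13), Zscan4 (6.25), Tcstv1 (6.12) and Eif1a (5.24), and Eif1a and Gm4340, which had RM changes of 3.24 and 3.11 by ratio, stood at 5.24 and 4.83. No other gene of the TMEM family has a named probe here.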

How the data were processed

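Spot intensity values, deposited as the Agilent Feature Extraction output of each array, had been processed as follows per the file headers: local background subtracted, surrogates for low signals, dyes normalized by linear factors and LOWESS. The deposited software error of each log ratio, on a log10 scale and another column beside the intensities, was converted to log2. The methods describe 2 rounds of linear amplification before labeling, which can stretch or compress differences. The series matrix of log10 values, deposited for 41999 probes, was the log10 ratio of Cy3 over Cy5 raised by the average log10 reference signal of that probe for 99.52% to 99.54% of the values of an array (within 0.001), with column medians of 2.94 to 2.95, and was an alternative.

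Log2 ratios of processed Cy3 over Cy5 were computed without control spots and outlier spots, which numbered 24 to 228 per array, and repeated probes were averaged. Group means were fitted with lmFit and eBayes in limma 3.58.1 (R 4.3.3). Calls needed 3-fold and an adjusted p under 0.15, as in the study; for the RA pair, without replicates, only the fold was used. p-values measure the spread between these arrays, and the number of arrays limits the precision. Replicate numbers come from the labels. Arrays of the same number deviated together from their group means (correlations 0.388, 0.562 and 0.592), so the changes by replicate were taken within pairs. The main fit, its interval and the permutation test did not use the pairing. With the replicate number as a block, the standard error of Tmem92 was 0.54 (limma, adjusted p = 0.0819).

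Tmem92, the lists and the tests were chosen with earlier results of these data known. Named were Tmem92, the Zscan4 signature, the 10 most similar probes, the neighbors of Tmem92 in RA order and on its chromosome, and up to 4 members of each list by RM change; the remaining members with a name were given to complete the 2-cell list. Names of 128 probes came from the study's list; no promoter or protein sequence of Tmem92 was used here.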

Additional observations from a re-analysis of the deposited data

How the results depend on the processing

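The RM rise of Tmem92 kept its direction under all 18 alternatives run, from 4.22 to 5.35 on the log2 scale, and its call under 14 of them. Among the listed genes called in RM, Zfp352 lost its call under 9 of the 18, Lmx1a under 7 and Gm12794 under 4. Zscan4, Tcstv1, Tcstv3, Eif1a and Arg2 lost theirs under 1. The t-statistics built here after the methods have as the floor of their error variance the mean over 500 probes of like brightness. With these t-statistics the difference was the same 4.56, with an unadjusted p of 0.00185 and an adjusted p of 1. By them 0 probes were enriched, where 101 were at least 3-fold higher at an unadjusted p under 0.05 and limma gave 113 at that level. When 1 RM array at a time was left out, the Tmem92 difference ran from 4.22 to 5.14 (adjusted p from 0.00864 to 0.273), and the number of enriched probes from 52 to 93. The fewest were left without RM-Zscan4+ replicate 1, where the small difference of Cdh20 also turned (-0.01 to 0.12 over the 6 arrays left out). Each of these fits used fewer arrays, and the causes of the changes were not tested. With the replicate number as a block, the paired fit gave 4.56 (adjusted p = 0.0819) and 104 enriched probes, and it changed no call of Tmem92 or of the 19 other named genes refitted. Values from other signals, background corrections or filters gave between 74 and 99 enriched probes, and 2-fold and a false discovery rate of 0.05 gave 111 and 61.

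The RA difference of Tmem92 lay between 5.13 and 6.12 under 6 alternatives and its excess over RM between 0.05 and 1.13 under 12. RA-Zscan4- stood 0.51 to 0.91 above RM-Zscan4- under 9, and the count of probes past 3-fold in the RA pair ran from 166 to 217 under 7. All moved by less than the spread between RM pairs or arrays, or less than 1.5 times for counts. Settings that change only the test were not run for the untested values. Intensity near the negative controls limits the low values in Zscan4- cells, and no replicate limits the RA ones.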
